A study of Mus musculus with 16 samples.

Results

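Amino acid transporters of the mouse solute carrier families Slc1a, Slc3a, Slc7a, Slc36a, Slc38a and Slc43a were taken by symbol, as every entry of the deposited expression table whose name is one of these prefixes followed by a number. This gave 41 of the 31663 entries, chosen by name and not by level. RNA was measured with Smart-seq2, a full-length protocol for very small inputs, in 16 libraries from single picked colonies. The cells were induced pluripotent stem cells (iPSC, carrying GFP) and trophectoderm stem cells (TSC, carrying RFP), grown by themselves or mixed, in which case they assemble into a structure with a red TSC part and a green iPSC part. Such structures were chosen by their fluorescence, divided by hand into their parts, and each part was sequenced apart. The 8 groups of 2 libraries each were assembled TSC parts with BMP4 (ITS_TSC_BMP4 in the plots), assembled TSC parts without BMP4 (ITS_TSC), TSC alone with BMP4, TSC alone without BMP4, assembled iPSC parts with BMP4, assembled iPSC parts without BMP4, iPSC alone with BMP4 and iPSC alone without BMP4. Groups named below without "with BMP4" had none. All cultures shared 5% Matrigel, serum, 12.5 ng/ml FGF4 and 500 ng/ml heparin, and BMP4 was present or absent for 24 hours before collection on day 3. Its dose, the strain and the number of cell lines are not stated in the labels. Whether both libraries of a group stem from separate cultures is not labelled, so a p-value measures the spread between libraries, which may be technical.

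Amino acid transporters fall into systems with different substrates. System A carriers of the Slc38a family bring small neutral amino acids such as alanine and glutamine into the cell together with sodium. Light chains of the Slc7a family exchange amino acids across the membrane and reach it only when bound to a heavy chain of the Slc3a family, whereas the cationic members of Slc7a carry arginine and lysine without a partner. Slc1a members carry glutamate and aspartate or small neutral amino acids, Slc43a members carry large neutral amino acids, and several Slc36a and Slc38a members sit on lysosomes. In the placenta, trophoblast cells pass amino acids from the mother to the fetus, and the System A member Slc38a4 is imprinted and expressed from the paternal allele. Several transporter genes are known targets of ATF4, a transcription factor that is made when amino acids are scarce and that binds, with C/EBP partners, to a composite promoter element.

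For 31 of the 41 genes a promoter window (250 bases before and 50 after an annotated start) was found by symbol among the RefSeq windows of build GRCm38.p6, 42 windows in all. The core TGATGNAA of the C/EBP-ATF element, searched on both strands, was present in 4 of these 42 windows (9.52%) and in 3.97% of all 32851 windows of the same length. Its carriers were 3 of the 31 genes, Slc7a7, Slc1a4 and Slc7a11. Slc7a7 has overlapping windows that hold the same TGATGCAA, so this site counts in more than 1 window. The windows of Slc7a7 and Slc1a4 are shown because both genes were lower in libraries of TSC origin, and a window of Slc38a4 because it was the most abundant transporter in TSC and holds no such match. Each is written 5′ to 3′ along the gene, with matches in capitals. The coordinates are those of GRCm38.p6 and not of the build used for the expression values.
Slc7a7, chr14:54417895-54418194, minus strand: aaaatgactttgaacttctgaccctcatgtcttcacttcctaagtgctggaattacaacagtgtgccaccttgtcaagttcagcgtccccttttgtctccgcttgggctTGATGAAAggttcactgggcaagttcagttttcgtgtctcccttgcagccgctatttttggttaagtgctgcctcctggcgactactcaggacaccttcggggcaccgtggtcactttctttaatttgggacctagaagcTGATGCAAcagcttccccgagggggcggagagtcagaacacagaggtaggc
Slc1a4, chr11:20332664-20332963, minus strand: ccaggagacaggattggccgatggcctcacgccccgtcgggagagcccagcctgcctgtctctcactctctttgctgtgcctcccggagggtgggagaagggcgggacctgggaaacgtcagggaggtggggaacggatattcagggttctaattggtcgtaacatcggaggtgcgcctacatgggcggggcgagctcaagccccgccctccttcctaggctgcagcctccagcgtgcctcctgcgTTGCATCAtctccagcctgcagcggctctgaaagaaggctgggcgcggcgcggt
Slc38a4, chr15:97055907-97056206, minus strand: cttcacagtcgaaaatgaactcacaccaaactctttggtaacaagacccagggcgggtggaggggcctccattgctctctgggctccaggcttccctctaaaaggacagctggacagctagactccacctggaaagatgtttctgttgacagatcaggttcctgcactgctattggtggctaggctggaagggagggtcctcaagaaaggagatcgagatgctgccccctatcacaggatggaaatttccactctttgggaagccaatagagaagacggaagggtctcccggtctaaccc

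In Slc7a7 the matches begin 141 bases and 1 base before the annotated start, and in Slc1a4 the match lies on the opposite strand, 4 bases before the start. Of 3 other short cores, the TATA box core TATAAA was in 14.3% of the members' windows and 13.6% of all windows. The antioxidant response core TGACNNNGC was in 14.3% and 12.4%, and the E-box CACGTG in 16.7% and 7.15%. A match describes only the letters of the window. Slc1a3, Slc3a2, Slc7a8, Slc38a5 and Slc43a1, which were also lower in TSC origin, have windows without the C/EBP-ATF core. The part of the core in any difference of level was not tested.

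Levels are deposited FPKM (fragments scaled to transcript length and to the mapped total), so genes can be compared per length. Differences are of log2(FPKM + 1), tested from 8 group means with limma over the 13406 genes that reached 1 FPKM in at least 2 libraries. Errors beside differences are SE, errors beside levels are SD, and a change is said to have passed when the Benjamini-Hochberg adjusted p over all 13406 genes was below 0.05. This scale understates the fold of genes at low levels. Read counts are unknown, so levels carry no counting interval. In bulk samples, fewer cells of a type and less RNA per cell cannot be told apart.

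The labels were checked against markers. Trophoblast stem cell markers summed to 589.9 to 6280 FPKM in TSC-origin libraries, with 9 to 12 of 12 at or above 1 FPKM, against 130.5 to 793.4 FPKM and 4 to 12 of 12 in iPSC-origin libraries. Pluripotency markers summed to 217.4 to 1204 FPKM in TSC-origin libraries, with 6 to 10 of 10 at or above 1 FPKM, against 1089 to 4001 FPKM and 9 to 10 of 10 in iPSC-origin libraries. In TSC alone without BMP4 the 12 trophoblast markers did not move together. Eomes was at 0.219 and 0.0844 FPKM, Esrrb at 0 and 0.140 and Elf5 at 5.51 and 11.6, lower than in every other TSC-origin library. Krt8 at 2932 and 1367, Krt18 at 2947 and 1705, Tfap2c at 140.5 and 99.5, Gata3 at 47.01 and 34.3 and Ets2 at 43.96 and 19.3 were higher than in every other library. Krt8 and Krt18 thus made up most of the summed trophoblast markers in TSC alone without BMP4, 6280 and 3546 FPKM. A pair of libraries held genes of the other origin. Replicate 2 of assembled TSC parts had Pou5f1 at 13.2 FPKM and Dppa5a at 499, against 2.33 and 8.73 in its replicate 1. Of the pluripotency markers only Utf1 was lower there (542.3 against 724). Replicate 2 of assembled iPSC parts with BMP4 had Elf5 at 50.4 FPKM and Hand1 at 149, against 0.193 and 10.4 in its replicate 1. However, Krt8 (107.2 against 323.5), Gata3 (6.02 against 12.5), Cdx2 (1.25 against 2.46) and Tfap2c (6.01 against 6.48) were lower in this replicate 2. The other trophoblast markers were higher in it, and the sums of the 12 were 609.5 and 547.8 FPKM. Calls that the pair decides are given without it as well. Of 6 mesoderm markers, which include T and Mixl1, the sum was 556.6 and 109.4 FPKM in assembled iPSC parts with BMP4, 264.4 and 289.1 in assembled iPSC parts, 195.4 and 350.8 in iPSC alone with BMP4 and 46.3 and 41.7 in iPSC alone, and at most 20.1 in TSC origin. Fibroblast markers summed to 0.338 to 3.40 FPKM and endoderm markers to 1.24 to 13.3 FPKM over all libraries.

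Of the 41 genes, 25 were tested and 16 stayed below the filter. Among the 16, 13 never reached 1 FPKM and 3 reached it in a single library, namely Slc1a1 (highest 1.44 FPKM), Slc7a2 (1.21) and Slc38a8 (4.55). Slc7a12, Slc7a13 and Slc7a15 were listed at 0 in every library. The share that passed the filter ran from 3 of 7 in Slc1a and 7 of 14 in Slc7a to 9 of 11 in Slc38a and 3 of 3 in Slc43a, with 2 of 4 in Slc36a and 1 of 2 in Slc3a. Only Slc3a2, Slc38a1 and Slc38a4 stood at 10 FPKM or more in all 16 libraries, and 11 genes stood at 1 FPKM or more in all 16. Slc7a11, the light chain that imports cystine in exchange for glutamate, stayed between 0.144 and 0.639 FPKM throughout. It stood at 0.207 and 0.354 FPKM in assembled TSC parts with BMP4, 0.287 and 0.326 in assembled TSC parts, 0.305 and 0.383 in TSC alone with BMP4, and 0.387 and 0.290 in TSC alone. Its levels in iPSC origin were 0.171 and 0.241 FPKM in assembled iPSC parts with BMP4, 0.496 and 0.639 in assembled iPSC parts, 0.283 and 0.144 in iPSC alone with BMP4, and 0.160 and 0.167 in iPSC alone. Both assembled iPSC parts lay above the other 14 libraries, the remaining groups overlapped, and every library was below 1 FPKM.

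**Figure D1:**
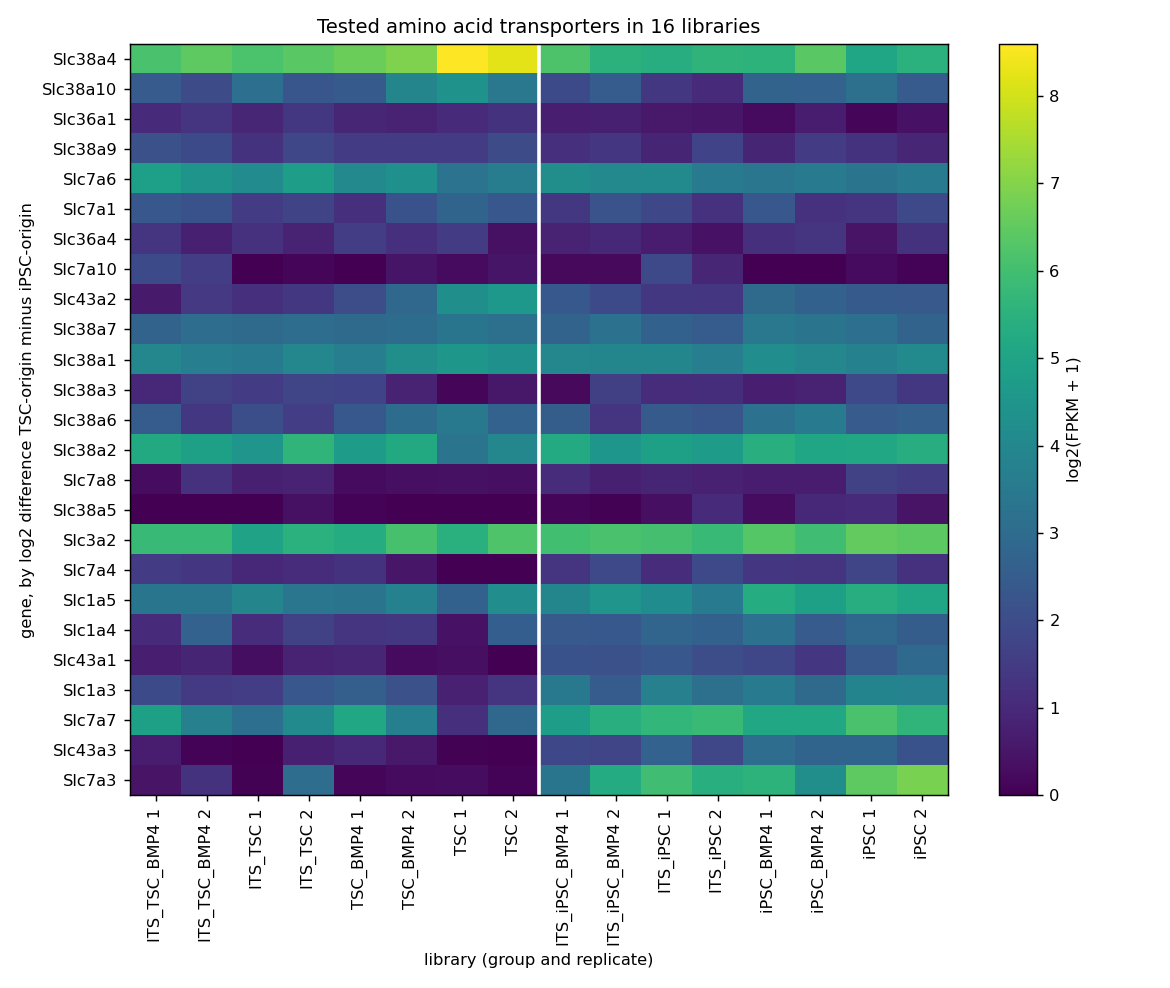
Levels of the 25 tested transporters as log2(FPKM + 1) in each of the 16 libraries (columns, by group and replicate), with genes ordered by the difference of TSC-origin minus iPSC-origin libraries. The white line separates the origins: Slc38a4 is brightest in the TSC libraries (386 and 304 FPKM), and Slc7a3 reaches at most 7.32 FPKM on the left and at least 9.06 FPKM on the right.

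The 41 genes together reached 548 and 517 FPKM in TSC alone, more than in any other library, and 203 to 338 FPKM in the other 6 TSC-origin libraries, against at most 452 FPKM in the iPSC-origin libraries. Slc38a4 alone made up 70.4% and 58.8% of this sum in TSC alone. In the other TSC-origin libraries its share was 24.5% to 36.5%. System A carriers summed to 417 and 338 FPKM in TSC alone and to 102 to 175 FPKM in the other TSC-origin libraries, against 79.4 to 132 FPKM in iPSC-origin libraries. For the cationic carriers and their relatives the order was the opposite, with 2.83 to 11.1 FPKM in TSC-origin and 12.7 to 119 FPKM in iPSC-origin libraries, groups that did not overlap. Slc7a3 carried this order, with 87.5 and 114.6 FPKM of the sums of 91.6 and 119 FPKM in iPSC alone, while the levels of Slc7a1 overlapped between the origins. These sums are descriptions and were not tested.

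**Figure D2:**
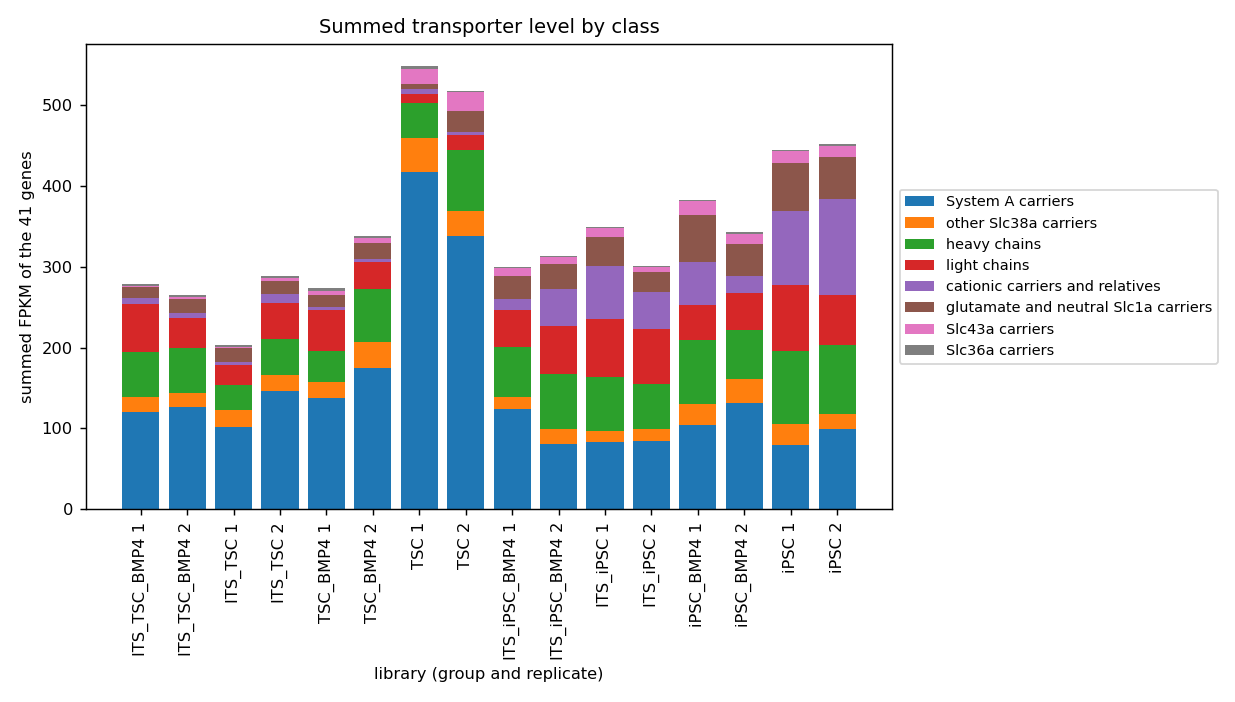
Summed FPKM of the 41 transporters in each library, stacked by class, with classes listed in the legend. System A carriers fill most of the bars of TSC alone (76.1% and 65.3% of the sum), and cationic carriers reach 20.6% and 26.3% in iPSC alone.

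Transporters were compared by the origin of the cells. Between the 8 TSC-origin and the 8 iPSC-origin libraries, 16 of the 25 tested transporters changed (64.0%), 5 higher and 11 lower in TSC origin, where 48.8% of all tested genes changed, 24.8% higher and 24.0% lower. The median difference was -0.17 over the 25 genes and -0.01 over all genes. The arginine carrier Slc7a3 had the largest difference, and Slc38a4 led the genes on the higher side. Slc36a1 reached 1 FPKM only in TSC-origin libraries (5 of them), and Slc38a5 (2), Slc43a1 (8) and Slc43a3 (8) only in iPSC-origin libraries. These 4 passed the filter through the origin where they were high. The filter therefore favoured a difference in that direction, and their values are a description. Of the other 21 tested transporters 12 passed (57.1%). The libraries of the origins did not overlap for Slc7a3 nor for 3 of these 4 (Slc43a1, Slc43a3 and Slc36a1), where 9.34% of all genes had no overlap. Without the pair of libraries named above 15 passed, 3 higher and 12 lower, 14 of them among the 16. Slc7a6 and Slc38a9 were then lost (0.38, limma adjusted p = 0.0654, and 0.44, limma adjusted p = 0.0873) and Slc38a2 gained. Without replicate 2 of iPSC alone 14 passed, 3 higher and 11 lower.

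Slc7a3 carries arginine, lysine and ornithine. It stood at 0.384 and 1.41 FPKM in assembled TSC parts with BMP4, 0.0369 and 7.32 in assembled TSC parts, 0.0865 and 0.184 in TSC alone with BMP4, and 0.226 and 0.0555 in TSC alone. In cells of iPSC origin it stood at 9.06 and 37.97 FPKM in assembled iPSC parts with BMP4, 61.5 and 40.98 in assembled iPSC parts, 46.1 and 17.8 in iPSC alone with BMP4, and 87.5 and 115 in iPSC alone. Every TSC-origin library was below every iPSC-origin library, and the highest of the TSC-origin values belonged to replicate 2 of assembled TSC parts, the library with Pou5f1 at 13.2 FPKM. The difference was -4.69 ± 0.41, limma adjusted p = 1.93e-06, and without the pair it was -4.82, limma adjusted p = 1.88e-07. Slc7a1, the other abundant cationic carrier of many tissues, ranged from 1.27 to 5.75 FPKM in TSC-origin and 1.33 to 4.09 FPKM in iPSC-origin libraries and did not pass (0.34 ± 0.23, limma adjusted p = 0.238). Slc7a4, a relative whose substrate is uncertain, fell (-0.65 ± 0.17, limma adjusted p = 0.00840), and was listed at 0 in both libraries of TSC alone.

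Among the light chains, Slc7a7 and Slc7a6 differed in opposite directions. Both form the system that exchanges cationic against neutral amino acids with sodium. Slc7a7 stood at 28.7 and 12.3 FPKM in assembled TSC parts with BMP4, 7.80 and 16.4 in assembled TSC parts, 34.4 and 12.1 in TSC alone with BMP4, and 1.28 and 6.51 in TSC alone. It stood at 26.5 and 42.1 FPKM in assembled iPSC parts with BMP4, 51.3 and 55.5 in assembled iPSC parts, 33.4 and 33.7 in iPSC alone with BMP4, and 69.5 and 48.5 in iPSC alone. The groups overlapped through replicate 1 of TSC alone with BMP4 and replicate 1 of assembled TSC parts with BMP4. Slc7a7 fell in TSC origin (-1.86 ± 0.29, limma adjusted p = 0.000215). For Slc7a6 the levels were 28.1 and 20.7 FPKM in assembled TSC parts with BMP4, 16.5 and 27.2 in assembled TSC parts, 15.4 and 19.02 in TSC alone with BMP4, and 8.60 and 11.6 in TSC alone. Cells of iPSC origin had 17.9 and 15.6 FPKM in assembled iPSC parts with BMP4, 15.98 and 11.01 in assembled iPSC parts, 9.38 and 10.3 in iPSC alone with BMP4, and 8.80 and 10.3 in iPSC alone. The groups overlapped, with the 3 highest values in assembled TSC parts, 2 of them with BMP4 and 1 without. Slc7a6 rose (0.49 ± 0.15, limma adjusted p = 0.0146), but without the pair with markers of the other origin it did not pass (0.38, limma adjusted p = 0.0654).

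Slc3a2, the heavy chain known as 4F2 or CD98, was among the most abundant transporters everywhere. It stood at 54.4 and 55.2 FPKM in assembled TSC parts with BMP4, 29.9 and 44.1 in assembled TSC parts, 39.1 and 66.5 in TSC alone with BMP4, and 43.03 and 74.7 in TSC alone. In iPSC origin it stood at 61.98 and 68.2 FPKM in assembled iPSC parts with BMP4, 66.4 and 55.4 in assembled iPSC parts, 79.7 and 61.5 in iPSC alone with BMP4, and 90.8 and 84.95 in iPSC alone. The groups overlapped, and iPSC alone was highest. Slc3a2 fell in TSC origin by a small margin (-0.51 ± 0.15, limma adjusted p = 0.0149). Of the remaining tested light chains, Slc7a8 fell (-0.45 ± 0.15, limma adjusted p = 0.0225) at levels of at most 2.18 FPKM. It did not pass after quantile normalization (-0.29, limma adjusted p = 0.0943) or without replicate 1 of assembled TSC parts with BMP4 (-0.33, limma adjusted p = 0.0502). Slc7a10 did not pass (0.15 ± 0.16, limma adjusted p = 0.435).

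All 3 tested Slc1a carriers were lower in TSC origin. Slc1a3, which carries glutamate and aspartate, stood at 2.82 and 1.74 FPKM in assembled TSC parts with BMP4, 1.95 and 4.03 in assembled TSC parts, 5.05 and 3.40 in TSC alone with BMP4, and 0.716 and 1.45 in TSC alone. It stood at 10.04 and 4.67 FPKM in assembled iPSC parts with BMP4, 12.4 and 7.93 in assembled iPSC parts, 10.9 and 6.79 in iPSC alone with BMP4, and 13.6 and 13.1 in iPSC alone. The groups overlapped only where replicate 1 of TSC alone with BMP4 exceeded replicate 2 of assembled iPSC parts with BMP4, the library that also held Elf5. The difference was -1.62 ± 0.20, limma adjusted p = 3.3e-05. Slc1a5, a carrier of glutamine and other neutral amino acids, stood at 9.22 and 9.04 FPKM in assembled TSC parts with BMP4, 13.9 and 9.49 in assembled TSC parts, 8.83 and 12.8 in TSC alone with BMP4, and 5.30 and 17.6 in TSC alone. The iPSC-origin libraries had 14.4 and 21.4 FPKM in assembled iPSC parts with BMP4, 17.2 and 10.4 in assembled iPSC parts, 38.8 and 28.3 in iPSC alone with BMP4, and 39.9 and 33.2 in iPSC alone. Assembled iPSC parts without BMP4 lay within the TSC-origin range and iPSC alone, with or without BMP4, above it. Slc1a5 fell in TSC origin (-1.11 ± 0.22, limma adjusted p = 0.00108).

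Slc1a4, a carrier of alanine, serine and cysteine, was unsteady between replicates. It stood at 1.10 and 5.53 FPKM in assembled TSC parts with BMP4, 1.14 and 2.14 in assembled TSC parts, 1.51 and 1.62 in TSC alone with BMP4, and 0.353 and 4.92 in TSC alone. Its levels in iPSC origin were 4.22 and 4.18 FPKM in assembled iPSC parts with BMP4, 6.03 and 5.34 in assembled iPSC parts, 8.13 and 4.57 in iPSC alone with BMP4, and 6.38 and 4.79 in iPSC alone. Replicate 2 of TSC alone and replicate 2 of assembled TSC parts with BMP4 lay within the iPSC-origin range, while their replicate 1 lay below it. It fell (-1.13 ± 0.30, limma adjusted p = 0.00805), and passed in all 22 alternatives.

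**Figure D3:**
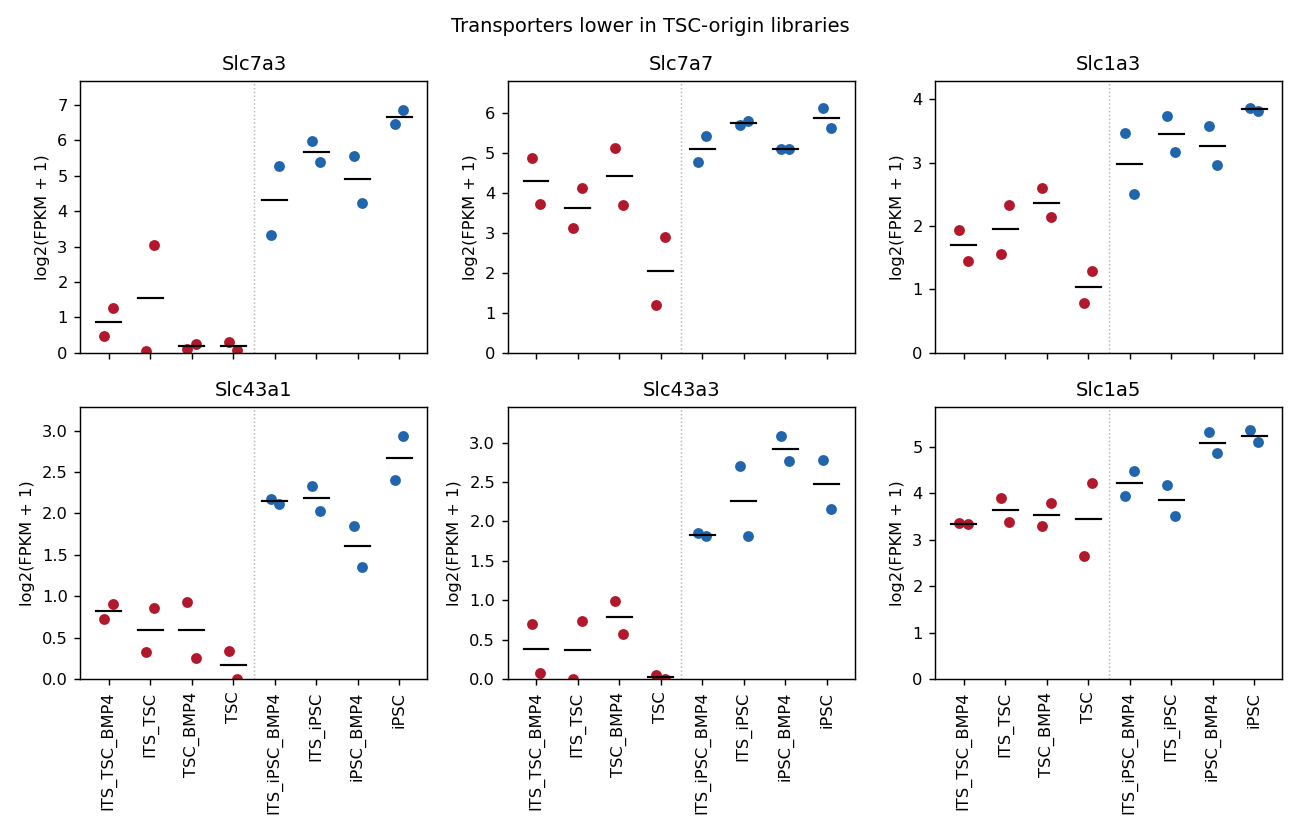
Levels as log2(FPKM + 1) of 6 transporters that were lower in TSC origin, with a point per library, a line at the mean of each group's 2 log2 values, and TSC-origin groups in red to the left of iPSC-origin groups in blue. Slc7a3, Slc43a1 and Slc43a3 separate the origins completely, Slc7a7, Slc1a3 and Slc1a5 do not. Slc43a1 and Slc43a3 passed the filter only through iPSC-origin libraries, where they were high.

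System A was led by Slc38a4. It stood at 68.5 and 86.5 FPKM in assembled TSC parts with BMP4, 69.99 and 84.1 in assembled TSC parts, 99.6 and 121 in TSC alone with BMP4, and 386 and 304 in TSC alone. In iPSC origin it stood at 71.9 and 44.5 FPKM in assembled iPSC parts with BMP4, 40.01 and 47.6 in assembled iPSC parts, 46.3 and 83.8 in iPSC alone with BMP4, and 33.2 and 43.8 in iPSC alone. TSC alone lay far above all others, and assembled TSC parts overlapped the iPSC-origin range, which reached 83.8 FPKM in replicate 2 of iPSC alone with BMP4. The difference between origins was 1.29 ± 0.15, limma adjusted p = 2.25e-05, and without the pair it was 1.18, limma adjusted p = 0.000218. In iPSC alone with BMP4, replicate 2 also had trophoblast markers summing to 793.4 FPKM, against 329.4 in replicate 1. Most of both sums was Krt8 (319.7 against 143.1) and Krt18 (414.6 against 163.4). Elf5 was at 0.283 FPKM against 0, and Esrrb was lower in replicate 2 (0.415 against 0.546). The part of these markers in its Slc38a4 level was not tested.

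Slc38a1, a System A carrier that prefers glutamine, ranged from 10.96 to 22.5 FPKM over all 16 libraries. Its levels were 14.9 and 11.9 FPKM in assembled TSC parts with BMP4, 10.96 and 14.9 in assembled TSC parts, 11.7 and 18.00 in TSC alone with BMP4, and 22.5 and 18.7 in TSC alone. They were 14.9 and 14.6 FPKM in assembled iPSC parts with BMP4, 14.4 and 11.9 in assembled iPSC parts, 17.6 and 14.7 in iPSC alone with BMP4, and 12.6 and 15.9 in iPSC alone. No origin was apart, and the difference (0.05 ± 0.13, limma adjusted p = 0.775) did not pass and changed sign in 5 of 22 alternatives. Slc38a2, the System A carrier induced by amino acid shortage, stood at 36.6 and 28.6 FPKM in assembled TSC parts with BMP4, 21.3 and 47.8 in assembled TSC parts, 25.9 and 36.4 in TSC alone with BMP4, and 8.80 and 14.9 in TSC alone. In iPSC origin it stood at 36.9 and 22.03 FPKM in assembled iPSC parts with BMP4, 28.8 and 25.5 in assembled iPSC parts, 40.5 and 33.3 in iPSC alone with BMP4, and 33.6 and 40.04 in iPSC alone. Only TSC alone was set apart, below all other libraries. Over all groups Slc38a2 did not pass (-0.36 ± 0.19, limma adjusted p = 0.130), but it passed without replicate 2 of assembled TSC parts (-0.50, limma adjusted p = 0.0290).

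Among the other Slc38a genes, Slc38a10, whose transport role is less well known, stood at 4.55 and 3.04 FPKM in assembled TSC parts with BMP4, 7.72 and 3.98 in assembled TSC parts, 4.42 and 13.9 in TSC alone with BMP4, and 20.6 and 9.82 in TSC alone. It stood at 2.78 and 4.70 FPKM in assembled iPSC parts with BMP4, 1.65 and 1.05 in assembled iPSC parts, 5.60 and 5.55 in iPSC alone with BMP4, and 8.09 and 4.50 in iPSC alone. The groups overlapped, replicate 1 of TSC alone was highest and assembled iPSC parts were lowest. Slc38a10 rose in TSC origin (0.77 ± 0.25, limma adjusted p = 0.0203), but missed the threshold without replicate 2 of iPSC alone (0.68, limma adjusted p = 0.0533) or without replicate 1 of assembled TSC parts (0.67, limma adjusted p = 0.0524). Slc38a9, the lysosomal arginine sensor of mTORC1, was higher in TSC origin at 1.42 to 3.34 FPKM, against 0.866 to 2.29 FPKM in iPSC origin (0.49 ± 0.17, limma adjusted p = 0.0319). This call held in 12 of 22 alternatives, with a highest limma adjusted p of 0.0873. Slc38a5, a carrier of glutamine and histidine, was at most 1.09 FPKM anywhere and lower in TSC origin (-0.50 ± 0.16, limma adjusted p = 0.0186), where no library reached the filter level. Slc38a3, Slc38a6 and the lysosomal Slc38a7 did not pass.

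Slc36a1, a proton-coupled lysosomal carrier, stood at 0.793 to 1.65 FPKM in TSC origin against 0.0799 to 0.671 FPKM in iPSC origin, without overlap (0.59 ± 0.13, limma adjusted p = 0.00248). Slc36a4 did not pass. The Slc43a carriers of large neutral amino acids parted by member. Slc43a1 stood at 0.659 and 0.867 FPKM in assembled TSC parts with BMP4, 0.256 and 0.807 in assembled TSC parts, 0.906 and 0.196 in TSC alone with BMP4, and 0.267 and 0 in TSC alone. In iPSC origin it had 3.51 and 3.34 FPKM in assembled iPSC parts with BMP4, 4.03 and 3.09 in assembled iPSC parts, 2.59 and 1.56 in iPSC alone with BMP4, and 4.30 and 6.63 in iPSC alone. Every TSC-origin library was below every iPSC-origin library, with a difference of -1.61 ± 0.16, limma adjusted p = 6.84e-06. Slc43a3, which is known to carry nucleobases rather than amino acids and was singled out after its values were seen, behaved alike at 0 to 0.994 FPKM in TSC origin and 2.51 to 7.46 FPKM in iPSC origin (-1.98 ± 0.19, limma adjusted p = 4.12e-06). As said above, Slc36a1, Slc43a1 and Slc43a3 passed the filter only through the origin where they were high, so their values are a description. Slc43a2 did not pass between origins over all groups (0.10 ± 0.17, limma adjusted p = 0.648), and its sign turned under 2 alternatives.

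TSC and iPSC cultured alone without BMP4 differed, with Slc38a4 and Slc43a2 higher and Slc7a3, Slc7a7 and Slc1a3 lower in TSC. Of the 25 transporters 13 passed, 3 higher and 10 lower in TSC, where 36.4% of all genes passed, 16.2% higher and 20.2% lower. Among the 13, Slc36a1, Slc43a1 and Slc43a3 passed the filter only through the origin where they were high, so their values are a description. The medians were -0.62 over the transporters and -0.11 over all genes. With 2 libraries a group, 21 of the 25 transporters did not overlap, and neither did 68.0% of all genes. On the higher side Slc38a4 had a mean of 345 ± 57.6 FPKM in TSC, against 38.5 ± 7.51 FPKM in iPSC (3.13 ± 0.31, limma adjusted p = 2.09e-05), and Slc43a2 had 20.5 ± 3.17 against 4.35 ± 0.149 (2.00 ± 0.35, limma adjusted p = 0.000795, SD, 2 libraries each). The arginine carrier Slc7a3 had 0.141 ± 0.120 FPKM in TSC, against 101 ± 19.2 FPKM in iPSC (-6.47 ± 0.81, limma adjusted p = 9.85e-05). Slc7a7 (-3.84 ± 0.59, limma adjusted p = 0.000361), Slc1a3 (-2.81 ± 0.40, limma adjusted p = 0.000236) and Slc43a1 (-2.50 ± 0.33, limma adjusted p = 0.000133) fell. Slc38a2, at 8.80 and 14.9 FPKM in TSC against 33.6 and 40.04 in iPSC, fell (-1.59 ± 0.38, limma adjusted p = 0.00541). Slc1a5 fell (-1.79 ± 0.44, limma adjusted p = 0.00663), a call lost without replicate 1 of TSC (-1.01, limma adjusted p = 0.0634).

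The remaining calls in cells cultured alone were of low genes. Slc36a1 was higher in TSC, while Slc43a3, Slc7a4, Slc7a8 and Slc38a3 were lower, each below 5 FPKM on average on its higher side. Slc36a1 did not pass without replicate 1 of iPSC (0.73, limma adjusted p = 0.134) or without replicate 2 of TSC (0.78, limma adjusted p = 0.0884), and Slc7a4 did not pass without replicate 1 of iPSC (-1.21, limma adjusted p = 0.0577). Slc38a3 did not pass when either replicate of TSC or either replicate of iPSC was left out (limma adjusted p = 0.0577 to 0.197).

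Between the parts of assembled structures without BMP4, 6 transporters were lower in the TSC part and 0 were higher by limma, where 16.9% of all genes passed, 11.1% higher and 5.89% lower. At an unadjusted limma p below 0.05 there were 4 higher and 8 lower. Of the 25, 16 did not overlap, as for 62.9% of all genes. The 6 were Slc7a3 (-4.12 ± 0.81), Slc7a7 (-2.13 ± 0.59), Slc43a3 (-1.89 ± 0.38), Slc43a1 (-1.59 ± 0.33), Slc1a3 (-1.50 ± 0.40) and Slc7a10 (-1.34 ± 0.31), with limma adjusted p from 0.00479 to 0.0263. Slc43a1 and Slc43a3 passed the filter only through iPSC-origin libraries, where they were high, so their values are a description here too. Slc7a10 reached 1 FPKM in only 3 of the 16 libraries, among these parts only in replicate 1 of assembled iPSC parts (2.70 FPKM). Slc38a4 averaged 77.03 ± 9.95 FPKM in assembled TSC parts and 43.8 ± 5.39 FPKM in assembled iPSC parts, without overlap, and did not pass (0.80 ± 0.31, limma adjusted p = 0.0947), except when only these groups were fitted (limma adjusted p = 0.0284). The count fell to 1, Slc7a3, without replicate 1 of assembled iPSC parts or without replicate 1 of assembled TSC parts, and to 4 without replicate 2 of assembled iPSC parts. Over all genes the split of 1482 higher and 789 lower became 1273 and 1180 after quantile normalization and 1100 and 1290 after upper quartile rescaling, and the median of 0.12 became -0.01 and -0.06.

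On assembly of TSC, Slc43a2 and Slc38a4 fell. Comparing assembled TSC parts with TSC alone over both BMP4 states (4 libraries each), 5 transporters passed, 2 higher and 3 lower, where 17.6% of all genes passed, 6.97% higher and 10.6% lower. After upper quartile rescaling the split over all genes was 1334 higher and 1068 lower, against 935 and 1422 as deposited. Slc43a2 stood at 0.551 and 1.66 FPKM in assembled TSC parts with BMP4 and 1.24 and 1.66 without, against 3.08 and 6.29 in TSC alone with BMP4 and 18.3 and 22.8 without. All 4 assembled libraries were below all 4 of TSC alone, and Slc43a2 fell (-2.28 ± 0.25, limma adjusted p = 0.000250). Slc38a4 likewise did not overlap between assembled parts (68.5 to 86.5 FPKM) and TSC alone (99.6 to 386 FPKM) and fell (-1.32 ± 0.22, limma adjusted p = 0.00262). These 2 were the transporters without overlap here, as were 10.1% of all genes.

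The estimates were larger in libraries without BMP4 than in those with it, a difference that was not tested. Without BMP4, Slc43a2 differed by -3.13 ± 0.35, limma adjusted p = 0.000234, and Slc38a4 by -2.15 ± 0.31, limma adjusted p = 0.000893. With BMP4, the same genes differed by -1.42 ± 0.35, limma adjusted p = 0.110, and by -0.51 ± 0.31, limma adjusted p = 0.481, and 0 transporters passed. Calls were few over all genes as well, with 40 passing in libraries with BMP4 (21 higher, 19 lower). Without BMP4, 2575 genes passed (1208 higher, 1367 lower), 4 of them transporters. The drop in calls with BMP4 was therefore not particular to transporters. The stem cell markers moved in the same libraries: Eomes was at 11.2 and 30.5 FPKM in assembled TSC parts and 0.219 and 0.0844 in TSC alone, Elf5 at 116 and 159 against 5.51 and 11.6, but the 12 trophoblast markers together summed to 1709 and 1650 FPKM against 6280 and 3546. Over both BMP4 states Eomes and Esrrb of the 12 rose by limma on assembly, and Krt8, Krt18, Tfap2c and Gata3 fell. The part of these markers' difference in the transporter result was not tested.

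Of the transporters that rose on assembly of TSC, Slc7a6 averaged 23.1 ± 5.52 FPKM in assembled parts and 13.7 ± 4.54 in TSC alone (n = 4 libraries each), with overlap (0.74 ± 0.21, limma adjusted p = 0.0272). It did not pass when replicate 1 of TSC alone, either replicate of TSC alone with BMP4, replicate 2 of assembled TSC parts or replicate 1 of assembled TSC parts with BMP4 was left out (limma adjusted p = 0.0526 to 0.104). Slc7a4 rose (0.79 ± 0.25, limma adjusted p = 0.0435) at 0.919 to 1.86 FPKM against 0 to 1.37 FPKM, and passed in 3 of 17 alternatives, with limma adjusted p up to 0.493. Slc38a6, a carrier of uncertain substrate, stood at 4.62 and 1.61 FPKM in assembled TSC parts with BMP4 and 3.17 and 1.92 without, against 4.14 and 7.20 in TSC alone with BMP4 and 10.2 and 5.58 without. It fell (-1.03 ± 0.33, limma adjusted p = 0.0478), with overlap, and passed in 4 of 17 alternatives, with limma adjusted p up to 0.485. For comparison, Slc38a6 in cells of iPSC origin had 4.85 and 1.46 FPKM in assembled iPSC parts with BMP4, 4.45 and 3.88 in assembled iPSC parts, 8.17 and 10.7 in iPSC alone with BMP4, and 4.50 and 5.19 in iPSC alone. Without the pair with markers of the other origin only Slc43a2 and Slc38a4 passed, and leaving out single libraries gave 2 to 5 calls, with 2 without replicate 1 of TSC alone, replicate 2 of TSC alone with BMP4 or replicate 2 of assembled TSC parts, and 3 without replicate 2 of assembled TSC parts with BMP4. Not all were among the 5 reported. Without replicate 1 of assembled TSC parts 3 of 5 calls were, and without replicate 1 of assembled TSC parts with BMP4 3 of 4. Without replicate 2 of TSC alone or replicate 1 of TSC alone with BMP4 4 of 5 were.

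Slc38a2 moved the other way in libraries without BMP4, at 21.3 and 47.8 FPKM in assembled TSC parts against 8.80 and 14.9 in TSC alone (1.40 ± 0.38, limma adjusted p = 0.0218). Over both BMP4 states it did not pass (0.74 ± 0.27, limma adjusted p = 0.0742), although it did without replicate 1 of assembled TSC parts (1.02, limma adjusted p = 0.0243).

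**Figure D4:**
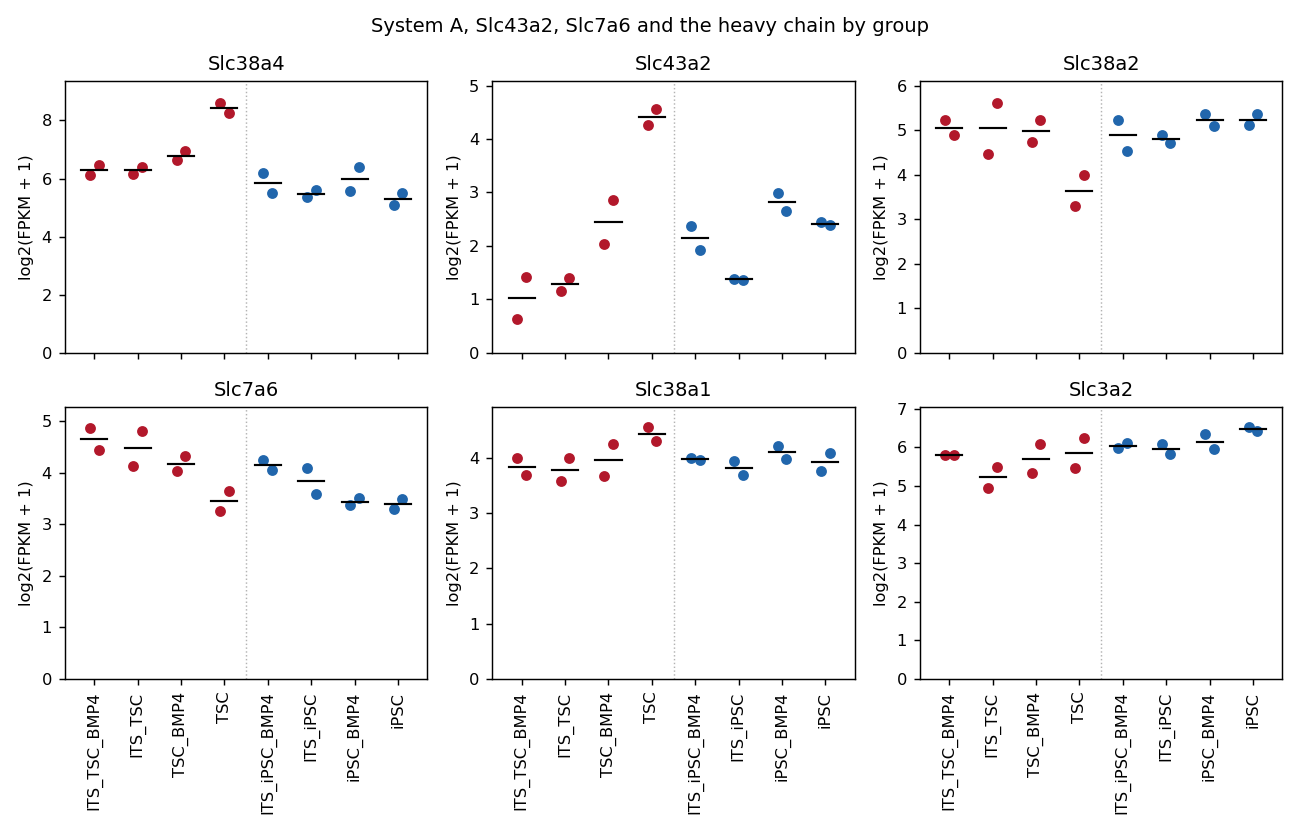
Levels as log2(FPKM + 1) of 6 transporters in the 8 groups, with a point per library, a line at the mean of each group's 2 log2 values, and TSC-origin groups in red to the left of iPSC-origin groups in blue. TSC alone without BMP4 is highest for Slc38a4 (386 and 304 FPKM) and Slc43a2 (18.3 and 22.8 FPKM) and lowest for Slc38a2 (8.80 and 14.9 FPKM).

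Assembled iPSC parts were compared with iPSC alone over both BMP4 states (4 libraries each), and means of 4 libraries below hold both states. On assembly of iPSC, 4 transporters passed, 1 higher and 3 lower, where 26.6% of all genes passed, 5.95% higher and 20.6% lower. After quantile normalization 2 transporters were higher and 1 lower, and after upper quartile rescaling 2 and 0. This comparison depends on scaling: over all genes the 797 higher and 2765 lower became 1543 and 1723 after quantile normalization and 1795 and 1402 after upper quartile rescaling, with medians of -0.19, -0.01 and 0.04. Slc1a5 averaged 15.9 ± 4.64 FPKM in assembled iPSC parts and 35.04 ± 5.34 in iPSC alone (n = 4 libraries each). All 4 assembled libraries, at 10.4 to 21.4 FPKM, were below the 28.3 to 39.9 FPKM of iPSC alone, and Slc1a5 fell (-1.13 ± 0.31, limma adjusted p = 0.0180). It kept its direction but not its call after quantile normalization (-0.81, limma adjusted p = 0.0581) and upper quartile rescaling (-0.81, limma adjusted p = 0.0558). It also missed the threshold without replicate 1 of iPSC alone, replicate 1 of iPSC alone with BMP4, replicate 2 of assembled iPSC parts or replicate 1 of assembled iPSC parts with BMP4 (limma adjusted p = 0.0583 to 0.0770).

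Slc43a2 in cells of iPSC origin stood at 4.17 and 2.78 FPKM in assembled iPSC parts with BMP4, 1.62 and 1.58 in assembled iPSC parts, 6.92 and 5.31 in iPSC alone with BMP4, and 4.46 and 4.25 in iPSC alone. The assembled and the separate cultures did not overlap, and it fell (-0.86 ± 0.25, limma adjusted p = 0.0220). It passed in 7 of 17 alternatives and was lower in all of them. Slc38a10 averaged 2.54 ± 1.61 FPKM in assembled iPSC parts and 5.94 ± 1.52 FPKM in iPSC alone, with overlap (-1.05 ± 0.35, limma adjusted p = 0.0414), and passed in 5 of 17. Slc7a10, a light chain for small neutral amino acids, was higher (0.73 ± 0.22, limma adjusted p = 0.0281), mainly through 2.70 and 0.904 FPKM in assembled iPSC parts without BMP4, and passed in 7 of 16. In the whole series it reached 1 FPKM in only 3 libraries. The highest limma adjusted p over these alternatives was 0.244 for Slc43a2, 0.567 for Slc38a10 and 0.712 for Slc7a10. Slc7a6 did not pass as deposited (0.57 ± 0.21, limma adjusted p = 0.0563), but passed as higher after quantile normalization (0.91, limma adjusted p = 0.00597) and upper quartile rescaling (0.88, limma adjusted p = 0.00780). Transporters without overlap numbered 3 (Slc1a5, Slc7a6 and Slc43a2), where 30.5% of all genes had none. Without the pair with markers of the other origin, Slc43a2 (-0.75, limma adjusted p = 0.0717) and Slc7a10 (0.72, limma adjusted p = 0.0638) did not pass, while Slc7a3 passed as lower (-1.27, limma adjusted p = 0.0214) beside Slc1a5 and Slc38a10. Leaving out single libraries gave 0 to 2 calls. There were 0 without replicate 1 of iPSC alone or of iPSC alone with BMP4, 1 without replicate 2 of iPSC alone or of assembled iPSC parts, and 2 without any of the other 4 libraries compared. Of these 2 only 1 was among the 4 reported when replicate 1 of assembled iPSC parts, or of assembled iPSC parts with BMP4, was left out. Markers moved in the same comparison: the mesoderm sums given above were higher in assembled iPSC parts than in iPSC alone without BMP4 and overlapped with it, 1 of 4 tested mesoderm markers (Evx1) rose, and of 10 pluripotency markers Pou5f1 fell by limma, at 49.5 and 112 FPKM in assembled iPSC parts with BMP4 and 71.5 and 80.9 without, against 299 and 175 in iPSC alone with BMP4 and 326 and 219 without. Their part in the transporter result was not tested.

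Whether assembly acted differently in the origins was tested as an interaction. The assembly difference in TSC minus that in iPSC was -1.35 ± 0.31, limma adjusted p = 0.0333, for Slc38a4, and -1.42 ± 0.35, limma adjusted p = 0.0409, for Slc43a2. These were 2 of the 25 transporters, both on the lower side, where 4.15% of all genes passed, 2.94% higher and 1.22% lower. Over all genes the split of 394 higher and 163 lower became 219 and 268 after quantile normalization and 186 and 207 after upper quartile rescaling, and both transporters passed under each. In libraries without BMP4 the interactions were -2.34 ± 0.44, limma adjusted p = 0.0140, for Slc38a4, and -2.09 ± 0.49, limma adjusted p = 0.0312, for Slc43a2. In libraries with BMP4 they were -0.37 ± 0.44, limma adjusted p = 0.874, and -0.75 ± 0.49, limma adjusted p = 0.786. Slc38a4 kept its call when replicate 2 of TSC alone, replicate 1 of TSC alone with BMP4, replicate 2 of iPSC alone with BMP4 or replicate 2 of either assembled part with BMP4 was left out. Any other single library left out gave a limma adjusted p of 0.0518 to 0.0851. Slc43a2 kept its call without replicate 1 of TSC alone, replicate 1 of TSC alone with BMP4, or replicate 2 of either assembled part with BMP4, and otherwise had 0.0567 to 0.0994.

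**Figure D5:**
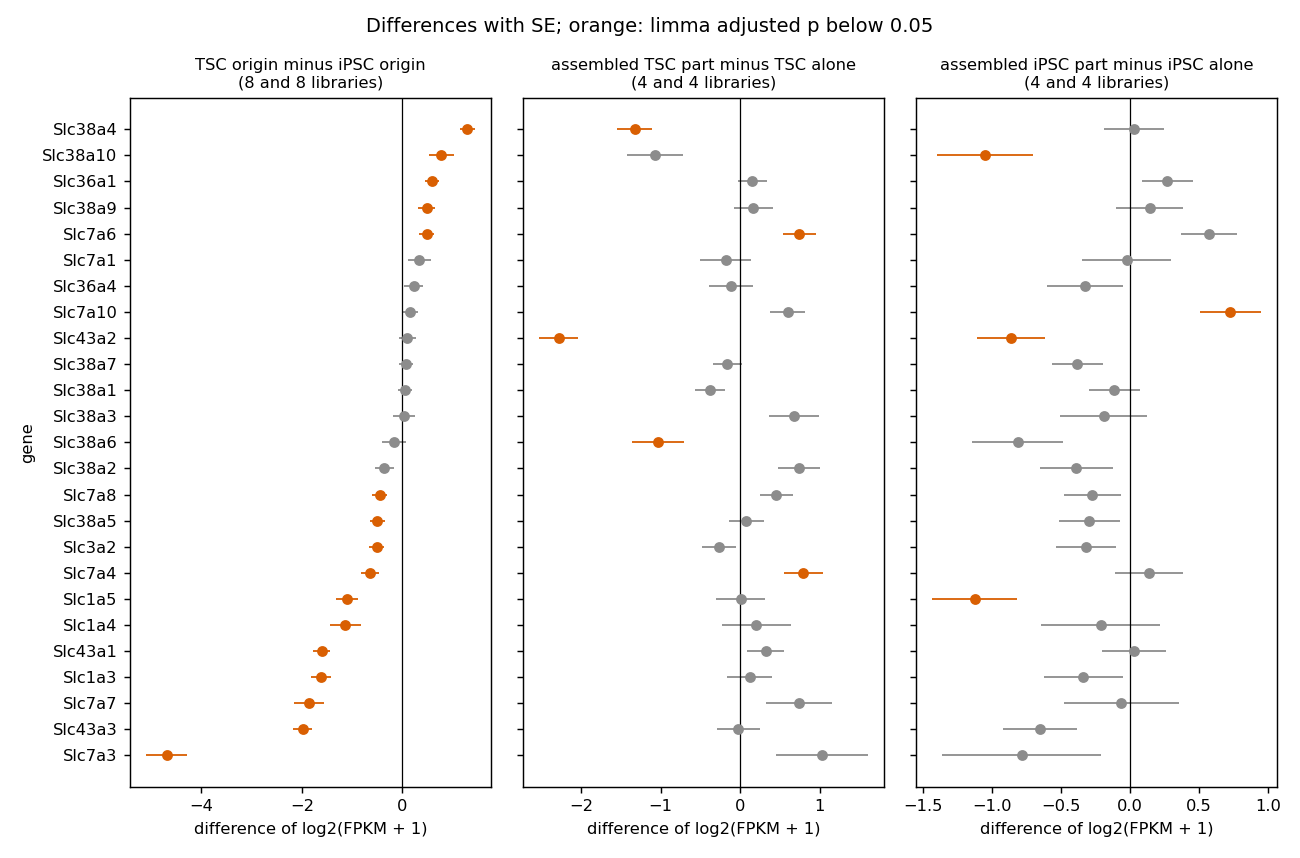
Differences of log2(FPKM + 1) with SE for the 25 tested transporters between TSC-origin and iPSC-origin libraries (left, 8 and 8 libraries), assembled TSC parts and TSC alone (middle, 4 and 4) and assembled iPSC parts and iPSC alone (right, 4 and 4), each axis with its own range. Orange points passed at a limma adjusted p below 0.05: 16 on the left, 5 in the middle and 4 on the right.

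BMP4 was compared with its absence within each origin. In cells of TSC origin (4 libraries with BMP4 and 4 without), 3 passed, 1 higher and 2 lower, where 7.03% of all genes passed, 3.63% higher and 3.41% lower. Slc43a2 fell (-1.12 ± 0.25, limma adjusted p = 0.0174), Slc38a4 fell (-0.81 ± 0.22, limma adjusted p = 0.0419) and Slc7a7 rose (1.53 ± 0.42, limma adjusted p = 0.0445). All 3 overlapped between the groups, 0 of the 25 transporters and 4.68% of all genes had no overlap, and in cells cultured alone all 3 passed. There Slc38a4 stood at 99.6 and 121 FPKM with BMP4 and 386 and 304 without (-1.63 ± 0.31, limma adjusted p = 0.00574). Slc43a2 stood at 3.08 and 6.29 with BMP4 and 18.3 and 22.8 without (-1.97 ± 0.35, limma adjusted p = 0.00408). Slc7a7 stood at 34.4 and 12.1 with BMP4 and 1.28 and 6.51 without (2.38 ± 0.59, limma adjusted p = 0.0211).

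In TSC alone 2 more transporters rose with BMP4, Slc38a2 (1.34 ± 0.38, limma adjusted p = 0.0355) and Slc1a3 (1.33 ± 0.40, limma adjusted p = 0.0499). Over all genes 1625 passed in TSC alone, 856 higher and 769 lower with BMP4. TSC alone without BMP4 serves as the baseline both here and for assembly, so these comparisons share libraries. In assembled TSC parts BMP4 left Slc38a4 at 68.5 and 86.5 FPKM with it and 69.99 and 84.1 without (0.00 ± 0.31, not passed). Over all genes 67 passed in these parts, 50 higher and 17 lower with BMP4. Of the transporters Slc7a10 alone passed there, at 2.81 and 1.92 FPKM with BMP4 against values of at most 0.0972 without (1.67 ± 0.31, limma adjusted p = 0.0361). Slc7a10 reached 1 FPKM in only 3 of the 16 libraries, and in TSC origin only in these 2 with BMP4. It met the filter only with the side where it was high, so its values are a description. The stem cell markers again moved in the same libraries, with Eomes at 14.3 and 13.8 FPKM in TSC alone with BMP4 and 0.219 and 0.0844 without. Over both cultures 2 of the 12 (Eomes and Esrrb) rose by limma and 3 (Krt8, Krt18 and Ets2) fell, the sum of the 12 was 1555 and 1742 FPKM in TSC alone with BMP4 against 6280 and 3546 without, and their part in the result was not tested. Without the pair with markers of the other origin none of the 3 passed: Slc43a2 had -1.06, limma adjusted p = 0.0636, Slc38a4 -0.75, limma adjusted p = 0.107 and Slc7a7 1.78, limma adjusted p = 0.0622, while Slc38a2 passed as higher (0.96, limma adjusted p = 0.0407). Over both states Slc43a2 passed in 11 of 17 alternatives, and Slc38a4 and Slc7a7 in 6 each. None was left without replicate 1 of TSC alone with BMP4, replicate 2 of assembled TSC parts or replicate 1 of assembled TSC parts with BMP4. A single call was left without replicate 1 of TSC alone or replicate 1 of assembled TSC parts, and 2 or 3 without any other library compared.

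In cells of iPSC origin limma called 0 transporters for BMP4, and 6 at an unadjusted p below 0.05 (3 higher, 3 lower), where 0.186% of all genes passed, 0.104% higher and 0.0821% lower. Slc7a3 did not pass (-1.57 ± 0.58, limma adjusted p = 0.354), with 9.06 and 37.97 FPKM in assembled iPSC parts with BMP4 and 61.5 and 40.98 without, and 46.1 and 17.8 in iPSC alone with BMP4 and 87.5 and 115 without. All 4 libraries with BMP4 had less than the 87.5 FPKM of the lower library of iPSC alone, but they overlapped those of assembled iPSC parts. Without the pair with markers of the other origin Slc7a3 passed (-2.06, limma adjusted p = 0.0214). The only transporter without overlap was Slc7a7, at 26.5 to 42.1 FPKM with BMP4 against 48.5 to 69.5 without, and it did not pass (-0.72 ± 0.42, limma adjusted p = 0.604); 3.33% of all genes had no overlap. The mesoderm sums given above were higher in iPSC alone with BMP4 than without it, and in assembled iPSC parts with BMP4 they lay on either side of those without; 0 of 4 tested mesoderm markers passed for BMP4, and their part was not tested.

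Genes that respond to or use amino acids were compared by origin as lists, where 24.8% of all genes were higher and 24.0% lower in TSC origin. Of 21 tested targets of the integrated stress response, the pathway through which ATF4 acts, 1 was higher and 10 were lower in TSC origin (median -0.34, against -0.01 over all genes), and without the pair 1 was higher and 9 lower. Cth, which makes cysteine, averaged 4.39 ± 5.71 FPKM in TSC origin and 105 ± 41.5 in iPSC origin (-4.67 ± 0.35, limma adjusted p = 6.28e-07, n = 8 libraries each). Sesn2, an inhibitor of mTORC1, averaged 6.77 ± 3.05 and 17.8 ± 9.23 FPKM (-1.18 ± 0.16, limma adjusted p = 7.83e-05). Of 20 aminoacyl-tRNA synthetases, which load amino acids onto tRNA, 1 was higher and 13 were lower (median -0.41), for example Lars (-0.74 ± 0.14, limma adjusted p = 0.000957) and Gars (-0.68 ± 0.10, limma adjusted p = 0.000122). Of 11 enzymes of serine, glycine and one-carbon metabolism 1 was higher and 4 were lower (median -0.35). Among them the cytosolic Shmt1 was higher (1.27 ± 0.18, limma adjusted p = 0.000107) and Phgdh, which starts serine synthesis, lower (-1.001 ± 0.16, limma adjusted p = 0.000247). Of 25 tested genes of mTORC1 and lysosomal amino acid sensing 4 were higher and 5 lower (median -0.01). The counts differed by culture. In cells cultured alone without BMP4 (all genes 16.2% higher, 20.2% lower), 1 synthetase was higher and 12 lower (median -0.84). Between assembled parts without BMP4 (all genes 11.1% higher, 5.89% lower), 0 were higher and 0 lower (median 0.03). Stress response targets had 2 higher and 7 lower alone and 0 and 1 assembled, and the serine list 1 and 5 alone and 1 and 0 assembled.

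The same lists were read for assembly of iPSC over both BMP4 states, where 5.95% of all genes were higher and 20.6% lower as deposited, and 1543 higher and 1723 lower of the 13406 after quantile normalization, 1795 and 1402 after upper quartile rescaling. Of the 20 synthetases 0 were higher and 14 lower as deposited, 1 and 9 after quantile normalization and 1 and 8 after upper quartile rescaling, with Aars averaging 17.6 ± 4.61 FPKM in assembled iPSC parts and 46.02 ± 7.62 in iPSC alone (-1.36 ± 0.19, limma adjusted p = 0.000779, n = 4 libraries each). In the test of whether assembly acted differently in the origins, 4 of the 20 synthetases passed, where 4.15% of all genes did (2.94% higher, 1.22% lower), all on the higher side for TSC, namely Cars (1.47 ± 0.28, limma adjusted p = 0.0179), Tars, Yars and Gars, against 2 after quantile normalization and 1 after upper quartile rescaling, again on the higher side. Genes of mTORC1 and amino acid sensing gave no steady direction, with 1 higher and 5 lower on assembly of iPSC as deposited, 4 and 1 after quantile normalization and 5 and 1 after upper quartile rescaling.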

How the data were processed

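The authors deposited FPKM per gene symbol, 1 column for each of the 16 libraries. The submitters' processing notes name CASAVA and TopHat2 and the builds mm9 and hg19, without roles. The program and annotation behind FPKM, and any use of strand, were not stated, so reads shared by overlapping genes cannot be checked. Depth is unknown: 2933 values lie above 0 and below 0.0001, and low values show no steps of whole reads. Totals were 666100 to 947900 FPKM, with 10504 to 11419 genes at 1 FPKM or more.

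Genes at 1 FPKM or more in 2 or more libraries (13406 of 31663) entered limma 3.58.1 in R 4.3.3 as log2(FPKM + 1), with 8 group means, 8 residual degrees of freedom, a trended prior and 8 two-sided contrasts, adjusted by Benjamini-Hochberg at 0.05. The fit for origin was tested on simulated data. Levels in every library are given for transporters that passed with a mean of at least 5 FPKM on the higher side and for 8 genes regardless of result, 1 of which is not reported here. Lower transporters named beyond this rule (Slc7a1, Slc7a4, Slc7a8, Slc7a10, Slc36a1, Slc38a5, Slc38a9, Slc43a3) were chosen after their values were seen. Of each other list, up to 4 genes were eligible to be named. Transporters, lists and rules were chosen with earlier results of these data known. Other pseudocounts, filters, normalizations, blocks, subsets and omitted libraries were tried as alternatives. Promoter windows are from RefSeq. Python 3.11.15 ran pandas 2.3.3, numpy 2.4.6 and matplotlib 3.10.9.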

Additional observations from a re-analysis of the deposited data

Results flagged for a closer look

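The effect of assembly differed between the origins for 2 transporters by a test of the difference itself. For Slc38a4 the change on assembly was lower by 1.35 in TSC origin than in iPSC origin (-1.35 ± 0.31, limma adjusted p = 0.0333), with assembly differences of -1.32 ± 0.22 in TSC and 0.03 ± 0.22 in iPSC. For Slc43a2 it was lower by 1.42 (-1.42 ± 0.35, limma adjusted p = 0.0409), with -2.28 ± 0.25 in TSC and -0.86 ± 0.25 in iPSC. Both were highest in TSC alone without BMP4, the group in which, of the 12 trophoblast markers, Eomes, Elf5 and Esrrb were lowest among TSC-origin libraries and Krt8, Krt18, Tfap2c, Gata3 and Ets2 highest. The part of these markers in the result was not tested.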

How the results depend on the processing

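Counts of transporters that passed kept within 1.5 times of the reported value for origin over all groups (14 to 16 with each library left out) and for origin in cells cultured alone (10 to 13), under every alternative run. For the assembled parts, leaving out single libraries gave 1 to 6 of the 6. For assembly of iPSC (4), upper quartile rescaling gave 2, libraries without BMP4 1, libraries with BMP4 0, and leaving out single libraries 0 to 2. For assembly of TSC (5), fitting only the groups compared gave 2, leaving out the pair with markers of the other origin 2, libraries with BMP4 0, and leaving out single libraries 2 to 5. Over all genes 40 passed in libraries with BMP4, against 2357 over both BMP4 states. For BMP4 in iPSC (0), leaving out the pair with markers of the other origin gave 1 and single libraries 0 to 0. For BMP4 in TSC (3), no filter gave 1, only the groups compared 0, the pair with markers of the other origin left out 1, cells cultured alone 5 and assembled parts 1, of which 0, 3 and 0 were among the 3, and single libraries left out 0 to 3. Over all genes 1625 passed in cells cultured alone and 67 in assembled parts, against 943 over both cultures. For the difference of assembly between origins (2), a pseudocount of 0.1 gave 1, no filter 0, libraries with BMP4 0, and single libraries left out 0 to 2. With a replicate block the counts were 16, 13, 6, 4, 4, 0, 2 and 1 in the order of the comparisons (origin over all groups, alone and assembled, assembly of iPSC and TSC, BMP4 in iPSC and TSC, difference of assembly). Whether same-numbered libraries share more than a number, such as the same structures, is not labelled. Over 28 pairs of groups the correlation of replicate differences was -0.185 to 0.119, with 2 above 0.1. The block lost Slc7a7 for BMP4 in TSC (limma adjusted p = 0.0576), Slc7a4 for assembly of TSC (0.0558) and Slc43a2 for the difference of assembly (0.0504). Signs of differences that did not pass were not followed for every transporter: Slc1a3 on assembly of TSC, for example, was 0.12 and -0.67 in libraries with BMP4. Slc38a1 by origin (0.05) was -0.00267 after quantile normalization, -0.0136 after upper quartile rescaling, -0.00498 without the pair with markers of the other origin, and -0.00113 without replicate 2 of assembled TSC parts, and ranged from -0.0227 to 0.123 with each library left out. Slc43a2 by origin (0.10) was -0.0278 with a pseudocount of 0.1 and ranged from -0.00238 to 0.207 with each library left out. Slc38a4 for BMP4 in TSC (-0.81) was 0.00491 within assembled parts. Beyond the smaller samples of the fits within states, the cause was not tested. Only the groups compared could not be fitted apart for origin over all groups or for the difference of assembly, which use all 16 libraries. With 2 libraries a group and unknown depth, differences of genes below 1 FPKM are not resolved. All alternatives were planned.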

Other observations

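Transporters outside the 6 families were compared by origin of the cells. Of 23 such genes 10 were tested, and 4 were higher and 4 lower in TSC origin, where 24.8% of all genes were higher and 24.0% lower (median 0.12, against -0.01 over all genes). Slc6a6, the taurine transporter, averaged 30.6 ± 8.01 FPKM in TSC origin and 11.7 ± 2.28 in iPSC origin (1.30 ± 0.16, limma adjusted p = 2.58e-05, n = 8 libraries each). Slc6a8, the creatine transporter, averaged 9.74 ± 5.05 and 2.90 ± 1.06 FPKM (1.41 ± 0.20, limma adjusted p = 8.49e-05). Slc16a10, a carrier of aromatic amino acids, averaged 0.290 ± 0.190 and 6.37 ± 3.43 (-2.42 ± 0.15, limma adjusted p = 2e-07), and Slc6a15, a carrier of branched-chain amino acids and proline, 0.115 ± 0.109 and 2.23 ± 0.934 (-1.48 ± 0.15, limma adjusted p = 7.4e-06). Slc16a10 and Slc6a15 passed the filter only through iPSC-origin libraries, where they were high. Their values, and their part in the count of lower genes, are a description.

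Against the same shares of all genes, of 17 enzymes of amino acid breakdown and of proline or glutamine metabolism, 3 were higher and 3 lower in TSC origin (median -0.28). Gls2, a glutaminase, averaged 11.3 ± 3.27 and 2.85 ± 1.76 FPKM (1.73 ± 0.19, limma adjusted p = 1.12e-05), and Glul, which makes glutamine, 49.4 ± 39.1 and 13.7 ± 5.26 (1.59 ± 0.26, limma adjusted p = 0.000263). Bcat1, which removes the amino group of branched-chain amino acids, rose on assembly of TSC (1.62 ± 0.21, limma adjusted p = 0.000753) and fell on assembly of iPSC (-0.77 ± 0.21, limma adjusted p = 0.0181), and the difference between these was tested (2.39 ± 0.30, limma adjusted p = 0.00448). Of 12 genes of glutathione and cystine metabolism 3 were higher and 5 lower in TSC origin (median -0.14), with Gpx4, which repairs oxidized lipids, at 1450 ± 427 FPKM in TSC origin and 495 ± 153 in iPSC origin (1.55 ± 0.16, limma adjusted p = 8.19e-06).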
